A study of Mus musculus with 6 samples.

Results

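Transcripts of 10 genes of fatty acid oxidation and PPAR (peroxisome proliferator-activated receptor) signalling were followed in mouse airway basal cells: Cd36, Cpt1a, Cpt2, Acadvl, Acadm, Hadha, Hadhb, Ppard, Ppargc1a and Ucp2. They were taken by symbol from a table of 56748 genes, and all 10 were found and reached a mean of 10 normalized counts, the minimum for testing, as did 15704 genes in all. Basal cells, the stem cells of the airway epithelium, had been isolated from tracheas of wild-type mice and cultured for 4 days. UK-5099, which blocks the carrier that brings pyruvate into mitochondria, was given in 3 libraries, and in the other 3 the cells received Y-27632 together with A8301 and DMH-1, of which the last 2 block TGF-beta and BMP type I receptors. With no untreated group, a difference cannot be assigned to one condition or the other. Whether the UK-5099 cultures also held any of the other inhibitors, and the sex and age of the mice, are not stated in the labels.

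Long-chain fatty acids enter cells with the help of CD36 and fatty acid transport proteins, are activated to acyl-CoA and pass into the mitochondrial matrix through the carnitine shuttle of CPT1 and CPT2. There, acyl-CoA dehydrogenases and the trifunctional protein shorten them step by step to acetyl-CoA, a fuel that does not depend on pyruvate entering the mitochondrion. PPARs are nuclear receptors that bind fatty acids, pair with RXR receptors and switch on genes of fatty acid use, with PGC-1alpha (Ppargc1a) as a coactivator. In stratified epithelia PPAR-delta is known mainly for its part in keratinocyte differentiation and wound repair.

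Libraries held between 19909589 and 27037795 reads in genes. Separate animals or cultures are not stated for the replicates, and the p-values reflect the spread of these samples alone, possibly a technical one. Basal cell markers were abundant in every library, with a summed level of 7 markers from 259724 to 280872 normalized counts with UK-5099 and from 119709 to 131634 with the 3 inhibitors. Most of that gap lay in Krt5 and Krt14. By gene, 5 of the 7 were higher with UK-5099, against 27.2% of all genes tested. Krt15 did not pass the test (53435 against 56065 normalized counts, adjusted p = 0.303), and Ngfr was 4.59-fold lower, at 65.8 ± 12.8 against 304 ± 42.9. The summed level of 7 secretory cell markers, nearly all of it Cyp2f2, ran the other way, from 1119 to 1738 and from 4631 to 5006 normalized counts. Xist was 1.70-fold higher with UK-5099, and 4 Y-linked genes (Kdm5d, Eif2s3y, Ddx3y, Uty) were 1.52-fold to 2.15-fold lower. The differences in these markers and sex-linked genes run along the same groups as the treatments and cannot be separated from them. Their part in the differences of the 10 genes was not tested.

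Compared with the 3 inhibitors, UK-5099 went with less mRNA for fatty acid uptake (Cd36), for the entry step of the carnitine shuttle (Cpt1a), for the medium-chain dehydrogenase (Acadm) and for the coactivator Ppargc1a, and with more for the receptor Ppard, the carrier Ucp2 and, by a small margin, the very-long-chain dehydrogenase Acadvl. Cpt2, Hadha and Hadhb did not pass the test. Thus 7 of the 10 genes differed at an adjusted p under 0.05 (limma, Benjamini-Hochberg over all genes tested), where 53.8% of all genes tested did so. Higher with UK-5099 were 3 of the 10, against 27.2% of all genes tested, and lower were 4, against 26.6%. A difference of at least 2-fold was seen in 4 of the 10, against 10.1% of all genes tested. The replicates of the groups did not overlap for 8 of the 10, against 60.8%. The median absolute log2 fold change of the 10 was 0.73 and that of all genes tested 0.30. In bulk RNA, fewer cells of a type and less RNA per cell cannot be told apart.

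**Figure D1:**
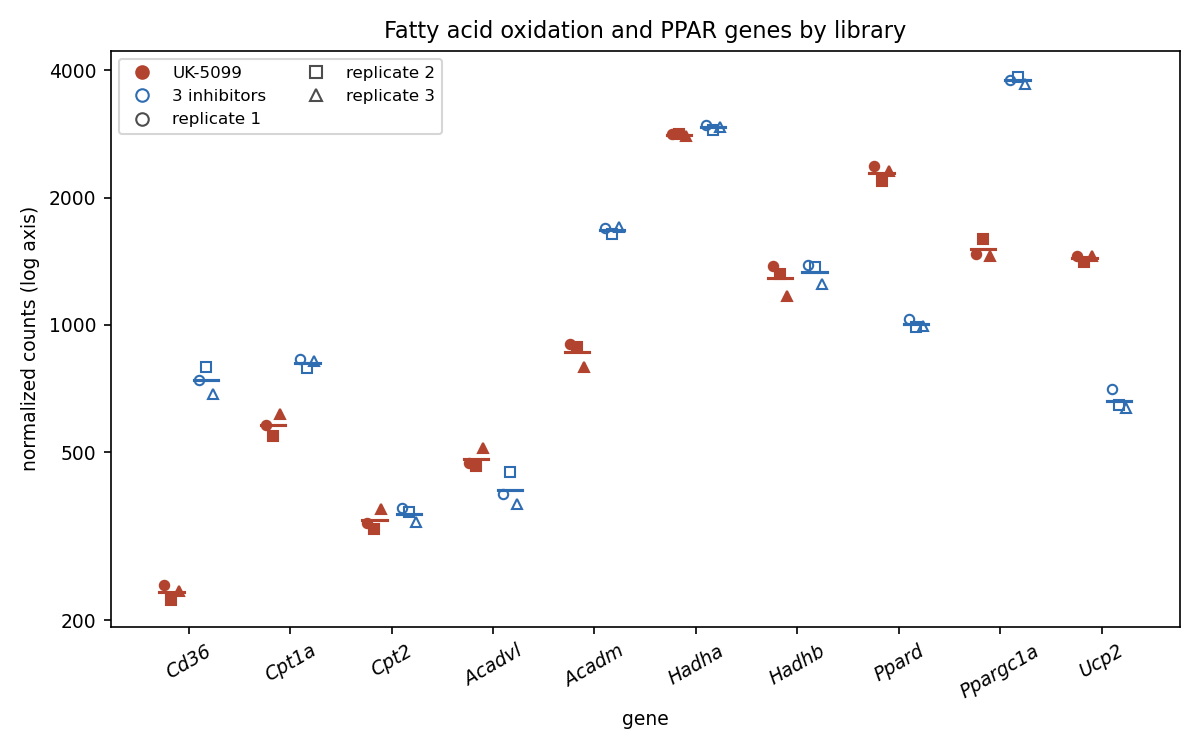
Normalized counts of the 10 genes (log axis) in each of the 6 libraries; filled red symbols are UK-5099, open blue symbols the 3 inhibitors, shapes the replicate numbers and bars the group means. Cd36, Cpt1a, Acadm and Ppargc1a lie lower with UK-5099 in every library, Ppard and Ucp2 higher, and the symbols of Cpt2 and Hadhb overlap.

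Uptake came first in the pathway and showed the largest difference of the 10 genes. Cd36, a membrane receptor that promotes uptake of long-chain fatty acids, stood at 243, 223 and 235 normalized counts in UK-5099 replicates 1, 2 and 3. In 3-inhibitor replicates 1, 2 and 3 it stood at 740.1, 795 and 687 normalized counts. All UK-5099 libraries were far below all 3-inhibitor libraries. The group means were 234 ± 10.1 and 740.8 ± 54.2 normalized counts (SD, n = 3 each), a 3.16-fold lower level with UK-5099 (log2 fold change -1.66 ± 0.08, SE; adjusted p = 1.70e-08). Between 193 and 890 reads per library lay behind these values.

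Cd36 is also made by endothelial cells, macrophages and adipocytes, so their markers were read beside it. Of 7 adipocyte markers none reached the filter, and Adipoq, Plin1, Lep and Retn were at 0 in every library, so the summed level was between 1.02 and 4.64 normalized counts with UK-5099 and between 1.83 and 3.09 with the 3 inhibitors. Of 8 leukocyte and macrophage markers 1 was tested, Cd68, a lysosomal protein, and did not pass. Adgre1, C1qa and C1qb were at 0 in every library, and the summed level, nearly all of it Cd68, was from 487 to 699 and from 477 to 523 normalized counts. Below the filter, Csf1r was at 0 in the UK-5099 libraries and at 9.28, 9.83 and 1.83 normalized counts with the 3 inhibitors, and Itgam had means of 3.36 and 8.62, both in the direction of Cd36. The part of these scarce transcripts in the Cd36 difference was not tested. Of 8 endothelial markers 4 were tested, and Tie1 and Vwf were lower with UK-5099, in the direction of Cd36. Tie1 stood at 5.51 ± 0.61 with UK-5099 against 41.2 ± 7.88 normalized counts (6.42-fold lower, adjusted p = 1.52e-05). Vwf stood at 49.9 ± 5.84 against 126.8 ± 11.5 (2.51-fold lower, adjusted p = 2.32e-05). The summed level was lower as well (from 106 to 136 against 209 to 228 normalized counts). Egfl7 (49.6 ± 8.25 with UK-5099 against 35.4 ± 7.59 normalized counts, adjusted p = 0.102) and Tek (12.7 ± 1.90 against 12.3 ± 3.62, adjusted p = 0.866) did not pass. The defining endothelial genes Cdh5 and Emcn were at 0 in all libraries, and Kdr and Pecam1 had means of at most 1.64 normalized counts in either group. The part of the endothelial transcripts in the Cd36 difference was not tested either.

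The promoter of Cd36 is shown because it was the 1 of the 10 that held a match to the PPAR-RXR direct repeat, AGGTCA and AGGTCA in tandem with any 1 base between them, with up to 2 mismatches on either strand. The windows reached from 250 bases before to 50 after the RefSeq gene start (build GRCm38.p6), and 3.86% of 32851 promoters held such a match. For each of the 10 genes only 1 start was searched, and which starts these cells use was not measured. The single element AGGTCA, searched on both strands and also part of the full repeat, was found in Cd36, Cpt1a, Acadm and Acadvl, 4 of 10 promoters, against 16.3% of all promoters. These 4 genes did not move alike: the first 3 were lower with UK-5099 and Acadvl higher. The 250 bases upstream of each start are given 5′ to 3′ on the gene's strand, at chr5:17835897-17836146, chr19:3323051-3323300, chr3:153944644-153944893 and chr11:70015429-70015678, with single elements and the repeat in capitals.
Cd36: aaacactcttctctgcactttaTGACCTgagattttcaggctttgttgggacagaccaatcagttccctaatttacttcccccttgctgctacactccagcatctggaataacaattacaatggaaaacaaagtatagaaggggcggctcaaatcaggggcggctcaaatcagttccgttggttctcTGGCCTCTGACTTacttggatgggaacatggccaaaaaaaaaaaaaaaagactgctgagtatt
Cpt1a: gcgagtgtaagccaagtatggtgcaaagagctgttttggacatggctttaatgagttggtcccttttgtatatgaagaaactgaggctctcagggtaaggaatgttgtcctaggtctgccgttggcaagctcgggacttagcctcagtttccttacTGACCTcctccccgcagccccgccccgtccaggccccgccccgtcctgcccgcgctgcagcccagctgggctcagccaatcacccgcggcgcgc
Acadm: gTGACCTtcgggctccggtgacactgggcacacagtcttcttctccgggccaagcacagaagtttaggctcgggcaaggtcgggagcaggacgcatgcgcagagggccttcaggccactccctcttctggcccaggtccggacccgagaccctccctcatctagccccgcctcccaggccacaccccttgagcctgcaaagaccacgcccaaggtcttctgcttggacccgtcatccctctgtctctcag
Acadvl: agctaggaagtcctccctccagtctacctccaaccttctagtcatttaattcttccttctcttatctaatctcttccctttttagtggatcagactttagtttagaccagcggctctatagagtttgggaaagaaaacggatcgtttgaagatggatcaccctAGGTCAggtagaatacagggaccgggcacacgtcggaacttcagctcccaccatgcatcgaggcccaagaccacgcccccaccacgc
In Cd36 the repeat lay from base -63 to -51 on the opposite strand, with 2 mismatches, and the single element from -228 to -223. The elements of Cpt1a, Acadm and Acadvl began at bases -94, -249 and -87. No promoter of the 10 held the ERR site TCAAGGTCA, exact or with 1 mismatch, the NRF1 site (GCGCA, any base, then GCGC) or the E-box CACGTG on either strand, found in 0.423%, 7.46%, 4.60% and 7.15% of all promoters. CCAAT was found in Cpt1a, Ppard and Cd36, against 37.4% of all promoters. A match is a likeness of letters in these windows, and binding was not measured.

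At the carnitine shuttle the outer enzyme was lower and the inner one did not differ detectably. Cpt1a, the outer-membrane palmitoyltransferase that sets the rate of entry, stood at 579, 545 and 616 normalized counts in the UK-5099 libraries and at 829.8, 789 and 822 in the 3-inhibitor libraries. The highest UK-5099 value lay under the lowest 3-inhibitor value. The level was 1.40-fold lower with UK-5099 (580.1 ± 35.8 against 814 ± 21.6 normalized counts; SD over 3 libraries each). Its log2 fold change was -0.49 ± 0.06 (SE; adjusted p = 4.80e-05). Cpt2, which releases the acyl group to CoA on the matrix side, stood at 340.4, 329 and 367 normalized counts with UK-5099 and at 368, 360.1 and 342 with the 3 inhibitors. These values interleaved. The log2 fold change was -0.05 ± 0.08 (SE; adjusted p = 0.647), with a 95% interval from -0.22 to 0.12.

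Other genes of activation and the shuttle were mostly lower. Of 11 tested besides Cpt1a and Cpt2, 7 were lower, 3 higher and 1 did not pass, with a median log2 fold change of -0.22 where that of all genes tested was 0.00. The shares over all genes tested were 26.6% lower and 27.2% higher. Slc22a5, the plasma membrane carnitine transporter, was 1.60-fold lower with UK-5099, at 239.8 ± 18.5 against 384 ± 15.1 normalized counts. Crat, carnitine acetyltransferase, was 1.56-fold lower, and the acyl-CoA synthetase Acsl3 was 1.55-fold lower. Acacb, whose product malonyl-CoA inhibits CPT1, was scarce and 4.99-fold lower, at 8.98 ± 0.40 against 48.9 ± 3.33 normalized counts. Cpt1c, a relative of Cpt1a known from neurons, was higher, at 81.7 ± 2.14 against 25.6 ± 7.91 normalized counts (3.20-fold, adjusted p = 6.88e-05). The muscle form Cpt1b was too scarce to be tested, with group means of 4.59 and 4.41 normalized counts. In uptake and binding, 8 genes were tested besides Cd36, of which 1 was higher and 3 lower, against 27.2% and 26.6% of all genes tested. The higher one was Fabp5, the epidermal fatty acid-binding protein, at 9375 ± 429 against 2900.1 ± 99.6 normalized counts (3.23-fold, adjusted p = 2.08e-10), and related copies of it exist with which reads may be shared. Slc27a4 and Slc27a3, of the fatty acid transport protein family, were 1.26-fold and 1.50-fold lower, and Fabp3 was 3.28-fold lower at 6.80 ± 2.56 against 23.9 ± 3.32 normalized counts.

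**Figure D2:**
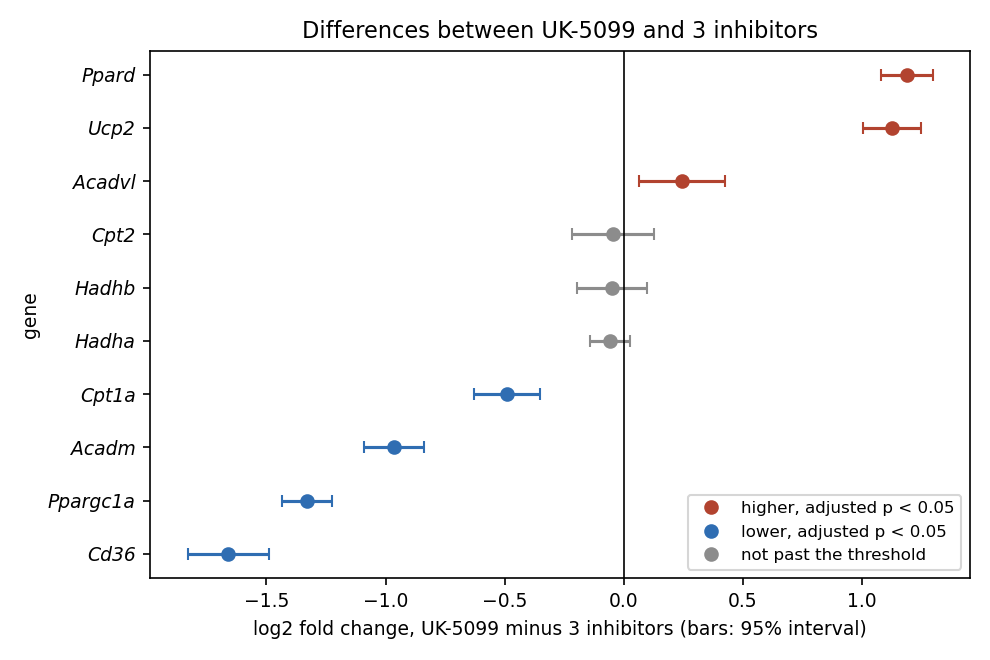
Log2 fold changes of the 10 genes, UK-5099 minus 3 inhibitors, with 95% intervals; red marks genes higher and blue genes lower at an adjusted p under 0.05, and grey those not past it. The values run from -1.66 for Cd36 to 1.19 for Ppard, and the intervals of Cpt2, Hadha and Hadhb span 0.

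Of the acyl-CoA dehydrogenases, which open each round of beta-oxidation, the medium-chain enzyme was lower and the very-long-chain enzyme, by a small margin, higher. Of their relatives in the lists, Acad9 (1.18-fold) and Acad11 (1.19-fold) were higher. Acads, Acadl, Acad10 and Acadsb did not pass (adjusted p = 0.176, 0.0954, 0.321 and 0.919). Acadm, the medium-chain enzyme, stood at 901, 887 and 794 normalized counts with UK-5099 and at 1699, 1638 and 1701 with the 3 inhibitors. The groups lay far apart, with UK-5099 replicate 3 the lowest of all. Acadm was 1.95-fold lower with UK-5099 (861 ± 58.2 against 1679 ± 35.7 normalized counts; SD over 3 libraries each), a log2 fold change of -0.97 ± 0.06 (SE; adjusted p = 1.03e-07). Acadvl, the very-long-chain enzyme, stood at 471, 462 and 512 normalized counts with UK-5099 and at 398, 449 and 376 with the 3 inhibitors. The groups did not overlap, but 3-inhibitor replicate 2 came close to the UK-5099 libraries. Acadvl was 1.18-fold higher (log2 fold change 0.24 ± 0.08, SE; adjusted p = 0.0262).

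The call of Acadvl is the weakest of the 7. It was lost with median-centred libraries (log2 fold change 0.15, adjusted p = 0.140) and when a library was left out, either UK-5099 replicate 1 or 3 (adjusted p = 0.0543 and 0.0561) or 3-inhibitor replicate 1 or 3 (adjusted p = 0.0786 and 0.118). Over the 14 alternatives its adjusted p ran from 0.0123 to 0.140. In the reference annotation 976 exon bases of Acadvl overlap exons of Dvl2 on the opposite strand, and whether reads were counted by strand is not given in the sources used here. Dvl2, a Wnt signalling protein, was lower with UK-5099 (734.8 ± 62.3 against 1061 ± 42.4 normalized counts, log2 fold change -0.53 ± 0.07), the direction opposite to that of Acadvl.

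Neither subunit of the trifunctional protein, which carries out later steps of the spiral, passed the test. Hadha, the alpha subunit, which holds the hydratase and long-chain hydroxyacyl-CoA dehydrogenase, stood at 2823, 2828 and 2804 normalized counts with UK-5099 and at 2969.6, 2891 and 2935 with the 3 inhibitors. All UK-5099 values lay below all 3-inhibitor values, by a margin of a few percent. The log2 fold change was -0.06 ± 0.04 (SE; adjusted p = 0.239; 95% interval from -0.14 to 0.03), and it passed the threshold in 1 alternative, centring on the median (-0.15, adjusted p = 0.00608). Hadhb, the beta subunit with the thiolase, stood at 1378, 1321 and 1170.4 normalized counts with UK-5099 and at 1384, 1369.9 and 1248 with the 3 inhibitors. The groups overlapped, and replicate 3 was the lowest of each (log2 fold change -0.05 ± 0.07, SE; adjusted p = 0.556; 95% interval from -0.20 to 0.10).

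Hadha and Hadhb lie head to head on chromosome 5. Their RefSeq start sites are 273 bases apart on opposite strands (GRCm38.p6), and their promoter windows share the 228 bases at chr5:30155003-30155230. This stretch is shown because it lies in the windows of both subunit genes, and its activity was not measured. Divergent starts of different genes within 300 bases were found for 9.44% of 27025 genes in the RefSeq table, and among the 10 genes for these alone. The stretch reads as follows on the plus strand, 5′ to 3′ in the direction of Hadhb, and holds none of the motifs searched.
Hadha and Hadhb: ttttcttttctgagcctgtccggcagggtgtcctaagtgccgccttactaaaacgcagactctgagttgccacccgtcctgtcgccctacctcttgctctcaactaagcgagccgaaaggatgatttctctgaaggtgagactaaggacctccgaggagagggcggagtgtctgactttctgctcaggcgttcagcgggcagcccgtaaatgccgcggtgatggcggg
Relative to Hadhb, Hadha gave 2.05, 2.14 and 2.40 normalized counts for each of Hadhb in the UK-5099 libraries and 2.15, 2.11 and 2.35 in the 3-inhibitor libraries. These counts are not corrected for exon length, which is 4017 bases for Hadha and 2080 for Hadhb. The ratio varied more among replicates than between groups. Its geometric means were 2.19 and 2.20 (log2 difference -0.01; exact permutation test, two-sided, p = 0.9, where 0.1 is the smallest that 3 against 3 allows).

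Of 18 other genes of mitochondrial beta-oxidation, all tested, 5 were higher, 2 lower and 11 did not pass, with a median log2 fold change of 0.05. Over all genes tested, 27.2% were higher and 26.6% lower. Lower ones were the acyl-CoA thioesterase Acot2 (1.43-fold; its reads may be shared with the near-identical Acot1) and the thiolase Acaa2 (1.20-fold). Eci2, an enoyl-CoA isomerase, was 1.43-fold higher, at 556 ± 57.5 against 388 ± 22.6 normalized counts, and Hsd17b10, a hydroxyacyl-CoA dehydrogenase, 1.25-fold higher. In peroxisomes, where very long chains are shortened, 4 of 15 tested genes were higher and 4 lower. The peroxisomal counts are near the shares over all genes tested. The acyl-CoA oxidase Acox2 was 1.38-fold higher, whereas Acox3 was 1.47-fold lower. Ech1, a dienoyl-CoA isomerase, was 1.46-fold higher.

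The regulators moved apart: the receptor Ppard was higher with UK-5099 and the coactivator Ppargc1a lower. Ppard, which encodes PPAR-delta, stood at 2380.5, 2187 and 2310.4 normalized counts with UK-5099 and at 1034, 989 and 994 with the 3 inhibitors. Every UK-5099 library held more than any 3-inhibitor library by a factor above 2. The level was 2.28-fold higher (2293 ± 97.7 against 1006 ± 24.5 normalized counts; SD over 3 libraries each), or 1.19 ± 0.05 on the log2 scale (SE; adjusted p = 6.10e-09).

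Ppargc1a stood at 1473, 1595 and 1457 normalized counts with UK-5099 and at 3792, 3861 and 3718 with the 3 inhibitors. The groups were again fully apart. The level was 2.51-fold lower (1508 ± 75.7 against 3791 ± 71.7 normalized counts; SD over 3 libraries each), or -1.33 ± 0.05 on the log2 scale (SE; adjusted p = 1.86e-09). Per normalized count of Ppard there were 0.619, 0.729 and 0.630 of Ppargc1a in the UK-5099 libraries and 3.67, 3.90 and 3.74 in the 3-inhibitor libraries. The ratio is not corrected for exon length (6464 bases for Ppargc1a and 3277 for Ppard). The geometric mean of this ratio was 5.73-fold lower with UK-5099 (0.658 against 3.77). By the same exact test p = 0.1, the lowest it can give. With both genes fully apart in opposite directions no other value was possible, so the ratio restates their differences and adds no test.

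Other receptors and coregulators, 14 of them tested, were higher in 2 cases and lower in 6, with a median log2 fold change of -0.11. Of all genes tested, 27.2% were higher and 26.6% lower. Pparg, the receptor known from adipocytes, was 1.79-fold higher with UK-5099, at 832 ± 34.8 against 463 ± 6.20 normalized counts (adjusted p = 4.18e-07). Ppara, the receptor known from liver, was scarce in both groups and did not pass the test (18.8 ± 3.91 against 30.5 ± 7.42 normalized counts, adjusted p = 0.0683). It passed in 3 of 13 alternatives, centring on the median and leaving out UK-5099 replicate 2 or 3-inhibitor replicate 1 (adjusted p = 0.0430, 0.0424 and 0.0398), in a range up to 0.237. Of the partner receptors, Rxra was 1.31-fold higher, Rxrb 1.13-fold lower and Rxrg at 0 in every library. The call of Rxrb ended without 3-inhibitor replicate 1 (adjusted p = 0.0558, the highest of all alternatives; the lowest was 0.000820). Esrra, an orphan receptor that works with PGC-1alpha on mitochondrial genes, was 1.61-fold lower, at 1279 ± 10.1 against 2064 ± 88.6 normalized counts. Nrip1, a corepressor, was 1.31-fold lower. Among 11 tested factors of mitochondrial biogenesis besides Ppargc1a, 1 was higher and 4 lower, against 27.2% and 26.6% of all genes tested. The lower ones included the mitochondrial RNA polymerase Polrmt (1.41-fold) and the deacetylases Sirt1 (1.25-fold) and Sirt3 (1.43-fold).

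Genes known as PPAR targets went both ways. Besides Cd36, Cpt1a, Acadm, Acadvl and Ucp2, 20 were tested, of which 7 were higher and 8 lower (median log2 fold change -0.02). Of all genes tested, 27.2% were higher and 26.6% lower, so calls in both directions are not particular to these targets. The smallest adjusted p among the higher ones belonged to Ivl and Tgm1, genes of the cornified envelope known also as markers of squamous differentiation, which were 5.11-fold and 3.32-fold higher, and to Fabp5. Plin2, which coats lipid droplets, was 1.32-fold lower, at 3255 ± 194 against 4292 ± 48.2 normalized counts. Pdk4 and Angptl4, common reporters of PPAR activity in other tissues, were below the filter, at means of at most 0.298 and 8.57 normalized counts.

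Ucp2, an inner-membrane carrier of the uncoupling protein family, stood at 1458, 1409.7 and 1458 normalized counts with UK-5099 and at 703, 647 and 635 with the 3 inhibitors. Each UK-5099 library held about the same level, and all were above the 3-inhibitor libraries. Ucp2 was 2.18-fold higher (1442 ± 27.8 against 662 ± 36.3 normalized counts; SD over 3 libraries each), a log2 fold change of 1.12 ± 0.06 (SE; adjusted p = 2.55e-08). Its exons overlap 305 bases of Dnajb13 on the opposite strand, a gene at means of 1.84 and 3.72 normalized counts. The relative Slc25a30 ran the other way, 1.82-fold lower at 1522 ± 7.58 against 2774 ± 46.0 normalized counts (adjusted p = 1.77e-08). Slc25a27 was 1.50-fold higher (adjusted p = 0.0166), a call that ended without UK-5099 replicate 3 or 3-inhibitor replicate 2 (adjusted p = 0.0531 and 0.0754, with a lowest value of 0.0107 over the alternatives). Slc25a14 did not pass (log2 fold change -0.37 ± 0.16, adjusted p = 0.0711), but did with median-centred libraries and without UK-5099 replicate 2 (adjusted p = 0.0297 and 0.0234, in a range up to 0.241). Ucp1, the brown fat protein, was at 0 in the UK-5099 libraries and at 8.25, 4.47 and 7.31 normalized counts with the 3 inhibitors, and Ucp3 had means of 1.77 and 0.900.

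**Figure D3:**
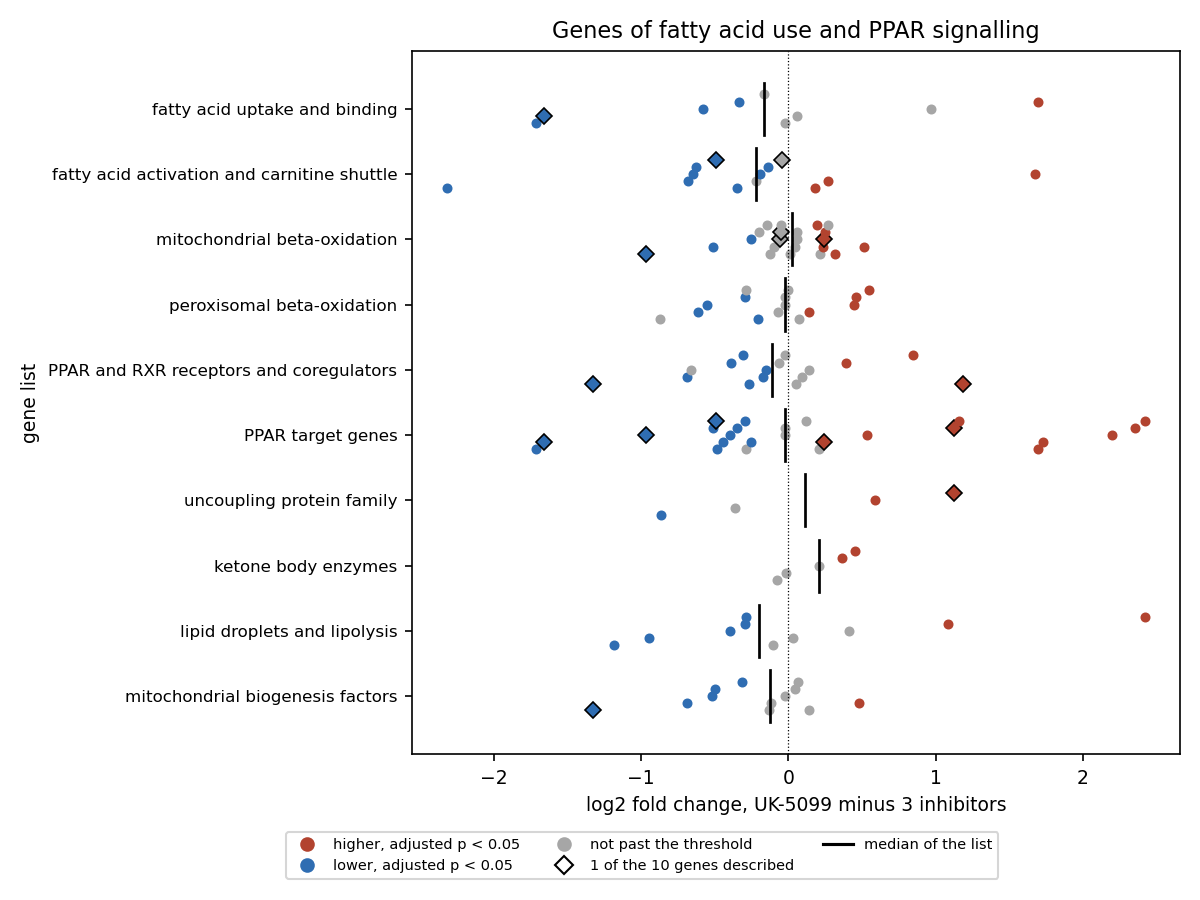
Log2 fold changes, UK-5099 minus 3 inhibitors, of the tested genes in 10 lists of fatty acid use and PPAR signalling; each symbol is a gene (some are in several lists), diamonds are the 10 genes described, colours the test result and black bars the list medians. Medians lie between -0.22 and 0.21, and in each list but that of ketone body enzymes some genes were higher and some lower.

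Over the 10 lists, 123 genes other than the 10 were named, 100 passed the filter and 59 were called, which is 59% against the 53.8% of all genes tested. Of these 26 were higher and 33 lower, 11 by at least 2-fold, against 27.2%, 26.6% and 10.1% of all genes tested. Their median absolute log2 fold change was 0.29, and that of all genes tested 0.30.

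Levels of the 10 genes were ordered by normalized counts per kb of exon, with lengths from GENCODE M21, since counts alone grow with length. With the 3 inhibitors Acadm was highest (820.3 ± 17.4 per kb, SD, n = 3), followed by Hadha (729.9 ± 9.82), Hadhb (641 ± 36.0) and Ppargc1a (586 ± 11.1). Ppard (307 ± 7.48 per kb) and Cd36 (209.5 ± 15.3) came next, and Cpt1a, Acadvl, Ucp2 and Cpt2 lay between 188 and 150.3 per kb. Replicates of neighbours in this order overlapped for Cpt1a and Acadvl and for Acadvl and Ucp2. With UK-5099 the order was led by Hadha (702 ± 3.20 per kb) and Ppard (699.7 ± 29.8), whose values overlapped, then Hadhb (619.99 ± 51.5), Acadm (421 ± 28.4) and Ucp2 (362 ± 6.98). Ppargc1a and Acadvl overlapped at 233 ± 11.7 and 222 ± 12.1 per kb, as did Cpt2 and Cpt1a at 146 ± 8.05 and 134 ± 8.28. Cd36 was lowest, at 66.0 ± 2.87 per kb. The lengths assume all annotated coding exons in use, which was not measured.

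**Figure D4:**
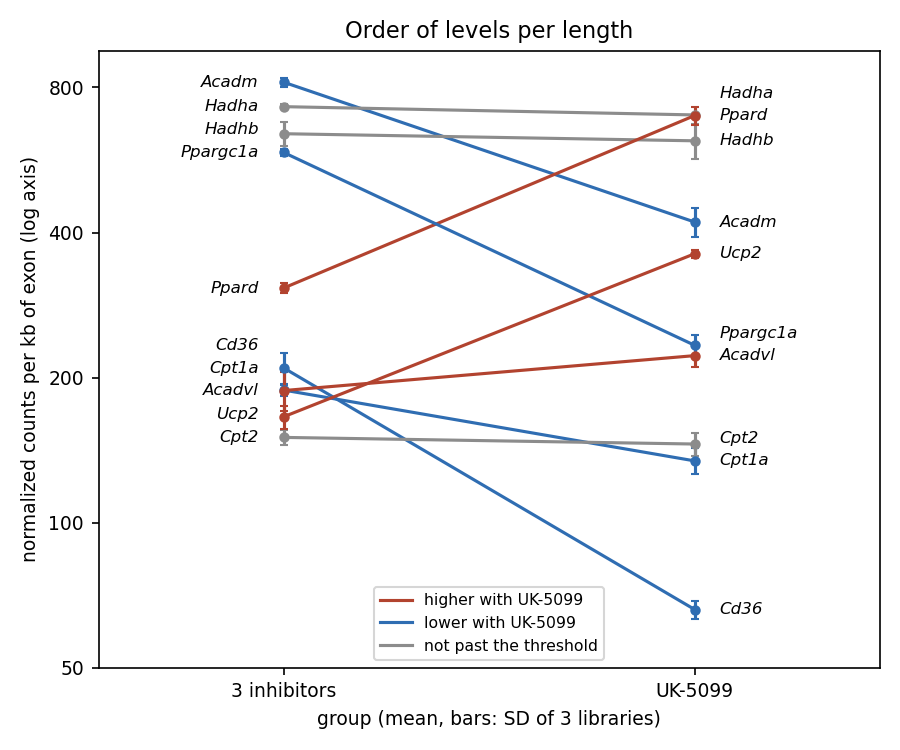
Normalized counts per kb of exon (log axis) of the 10 genes in each group; points are means of 3 libraries, bars SD, and lines join the groups. Acadm leads with the 3 inhibitors at 820.3 per kb and Hadha and Ppard lead with UK-5099 at 702 and 699.7 per kb, while Cd36 drops from 209.5 to 66.0.

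For the 4 genes with the largest differences, the genes most like them were sought as those with the smallest root mean square difference of mean-centred log2 values over the 6 libraries, among 10166 others whose mean reached 100 normalized counts. Nearest to Cd36 were the potassium channel gene Kcnq1 and Frat2, at root mean square log2 differences of 0.05 and 0.07. Tbc1d9 and Vegfb were nearest to Ppargc1a (both 0.05), Tmem154 and Slc48a1 to Ppard (both 0.03), and Cdc20 and Mlkl to Ucp2 (both 0.04). Likeness here rests mainly on the step between the groups.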

How the data were processed

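RNA was sequenced from cultured mouse tracheal basal cells, 3 libraries per group, and groups and replicate numbers were taken from the labels. Per the submitters' processing notes, HISAT2 2.1.0, DESeq2 1.36.0 and build GRCm39 were used, with no role stated; which counter, strand setting and annotation were used is not stated in them. The deposited values are in a unit other than plain counts: the authors scaled the reads per gene by library size factors and took the log2, and zeros appear as a spreadsheet error text.

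Values were raised back to normalized counts, that text read as 0 and 359 repeated identifiers dropped. Between 99.987% and 99.992% of nonzero values per library were within 0.02 of a whole number of reads. Genes with a mean of at least 10 were fitted as log2(normalized count + 1) with limma 3.58.1 (R 4.3.3; trend, two-sided, no covariates), with Benjamini-Hochberg adjustment over 15704 genes. Fold changes on this scale understate those of low genes. The sign of a log2 fold change is that of UK-5099 over the 3 inhibitors, errors are SD over libraries or SE of the fit, and the median SE was 0.09. The 95% intervals used the fit's 11.2 degrees of freedom. The 10 genes, the lists, the motifs and the rule for named genes (up to 4 called genes per list by smallest adjusted p, and whole families) were chosen with earlier results of these data known, and no list was tested as a set. Pdk4, Angptl4, Dvl2, Garem2, Dnajb13, the acyl-CoA dehydrogenases other than Acadm and Acadvl, and the genes named as such under other observations were added after their values were seen. Alternatives were 2 other scalings, no filter or a minimum mean of 50, pseudocounts of 0.5 and 5, limma-voom on recovered reads, a block for the replicate number, and leaving out each library. Promoters came from the RefSeq table of GRCm38.p6 and exon lengths from GENCODE M21 by identifier, so no coordinates of the deposited build were used. The fit was tested on simulated data. Python 3.11.15 (matplotlib 3.10.9, numpy 2.4.6, pandas 2.3.3) was used besides R.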

Additional observations from a re-analysis of the deposited data

How the results depend on the processing

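Cd36, Cpt1a, Acadm, Ppargc1a, Ppard and Ucp2 kept their direction and passed the threshold in all 14 alternatives. The number of the 10 genes called was 7 in the 8 alternatives that kept all libraries and 6 to 7 with 1 library left out, and the number of all genes called ran from 7351 to 9126 with 1 library left out, against 8449. Under centring on the median Hadha took the place of Acadvl among the 7. That centring moved the higher share of all calls from 50.6% to 39.1%, and upper-quartile rescaling to 54.5%. Hadhb, not called in any alternative, ran from -0.1001 to 0.0175 with 1 library left out, with a changed sign without UK-5099 replicate 3 (adjusted p = 0.806), and the log2 difference of the Hadha to Hadhb ratio ran from -0.0707 to 0.0421 in the same way, above 0 in 3 of the 6 cases. That of the Ppargc1a to Ppard ratio ran from -2.59 to -2.47. With the replicate number as a block, 7 of the 10 genes and 8423 genes in all were called. Deviations of same-numbered libraries correlated at -0.02, 0.12 and -0.09, and those of differently numbered ones from -0.198 to 0.193. With 3 libraries per group these values cannot show whether same-numbered libraries share an animal or a batch. The block changed no call of the 10 genes. Of the 10 genes Acadvl, Cd36 and Cpt2 had the largest SE (0.0822, 0.0779 and 0.0777). Their lowest libraries held 386, 193 and 301 reads, fewer than the lowest libraries of the other genes. What sets these SEs, and the cause of the changes between alternatives, were not tested.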

Other observations

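Genes of fat storage and release, outside the comparison of the 10 genes, were lower in 5 and higher in 2 of 10 tested cases. The shares over all genes tested were 26.6% lower and 27.2% higher. Pnpla2, the lipase that opens triglyceride breakdown, was 2.27-fold lower with UK-5099 (639 ± 17.3 against 1451 ± 46.8 normalized counts; SD over 3 libraries each; adjusted p = 1.04e-08), and Hilpda, an inhibitor of that lipase, was 1.93-fold lower. Dgat2, which makes triglycerides, was 2.12-fold higher at 360.5 ± 31.8 against 169 ± 8.81 normalized counts. Of 5 tested ketone body enzymes, Acat1 (1.37-fold) and Bdh1 (1.29-fold) were higher and none lower.

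Some scarce genes, chosen with their values in view, passed the test with higher levels with UK-5099. Plin4, a lipid droplet protein, stood at 40.8 ± 9.06 and 7.45 ± 4.49 normalized counts, Creb3l3, a transcription factor known from liver, at 40.9 ± 4.91 and 8.40 ± 3.05, and Cidea, a lipid droplet protein known from brown fat, at 84.6 ± 12.2 and 37.4 ± 6.03. Garem2, whose exons overlap 75 bases of Hadha on the opposite strand, had means of 1.90 and 0.602 normalized counts.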
